A study of Mus musculus with 4 samples.

Results

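CpG islands that lie away from promoters were followed through an H3K23 propionyl ChIP-seq table of mouse heart. They were the merged regions for which the table counted at least 1 CpG island and 0 promoters and a length under 30000 bases. They numbered 642 of 29210 regions (2.2%), or 6.58% of the 9751 regions with a CpG island. The rule itself used no signal value. The table holds only merged peak regions of these libraries, so each island entered through a peak call in at least 1 of them. For 47 of the 642 regions a peak was called in 1 library only. The length is that of the merged region. The question of the study is whether a diet without branched-chain amino acids alters histone propionylation in the pressure-overloaded heart.

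The libraries came from 12-week-old male C57Bl/6J mice, and each pooled 3 hearts, whose chromatin was precipitated with an anti-H3K23-propionyl antibody. Mice had either a sham operation or transverse aortic constriction (TAC, a narrowing of the aorta that overloads the left ventricle). On each surgery they ate a BCAA-control diet, which held all essential amino acids, or a BCAA-free diet, from which leucine, isoleucine and valine were removed. This makes 4 groups, here called control sham, control TAC, BCAA-free sham and BCAA-free TAC. The diets started 4 days ahead of the operation and lasted until the hearts were collected 1 week after it, so mice of all groups were operated on. There was 1 library per group and no input library, so higher and lower compare libraries, and no value has a replicate error or a test. In whole heart, a change in the number of cells of a type and a change of the mark per cell cannot be told apart.

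As background, CpG islands are stretches of DNA that keep their CG dinucleotides because they are mostly free of DNA methylation. Most coincide with promoters. Those inside genes or between genes, often called orphan islands, include alternative promoters, starts of non-coding RNAs and enhancers, and some gain DNA methylation in a tissue-specific way. Propionylation is a lysine acylation related to acetylation and found in active chromatin. Its donor, propionyl-CoA, is made in the breakdown of valine, isoleucine and odd-chain fatty acids, which heart muscle oxidises.

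Many of these regions held a transcription start that the table did not count as a promoter. A RefSeq start window (250 bases before to 50 bases after an annotated start, build GRCm38.p6) lay inside 215 of the 642 regions (33.5%). In 92 of them a start carried the symbol of a gene that the table listed for the region, as an alternative start. In the other 123 no start matched a listed symbol, and 77 of these regions listed no gene. A gene under another name in RefSeq, such as Sgol2 (Sgo2a), counted as no match, so 92 may be too low. Of the pairs of a region and a gene, 149 had a protein-coding gene and 89 a long non-coding RNA. Among all regions of the table, 9135 of 12520 with a promoter (73.0%) held a RefSeq start and 1434 of 16690 without one (8.59%).

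The sequences before 6 starts are shown because they place the results: Runx1 and Runx3 each have a start inside a member and another start outside, Sgk1 had one of the highest signals, and Zfp982 a low ratio. Each is the 250 bases before a RefSeq start in GRCm38.p6, 5′ to 3′ on the strand of the gene, with CG dinucleotides in capitals. Where a gene had several starts inside the member, the window with the most CG was taken.
Runx1 start inside a member, chr16:92697330-92697579, minus strand: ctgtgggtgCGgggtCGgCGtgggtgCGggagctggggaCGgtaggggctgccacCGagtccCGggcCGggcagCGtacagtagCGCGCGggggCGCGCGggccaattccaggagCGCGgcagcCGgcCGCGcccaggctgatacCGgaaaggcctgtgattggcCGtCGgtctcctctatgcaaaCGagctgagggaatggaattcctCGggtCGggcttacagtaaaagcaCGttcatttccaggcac
Runx1 start outside, chr16:92826075-92826324, minus strand: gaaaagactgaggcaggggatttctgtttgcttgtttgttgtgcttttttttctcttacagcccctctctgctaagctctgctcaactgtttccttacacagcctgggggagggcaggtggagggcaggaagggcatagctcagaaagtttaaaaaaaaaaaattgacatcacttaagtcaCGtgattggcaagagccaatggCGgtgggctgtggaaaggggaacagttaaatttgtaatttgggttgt
Runx3 start inside a member, chr4:135152295-135152544, plus strand: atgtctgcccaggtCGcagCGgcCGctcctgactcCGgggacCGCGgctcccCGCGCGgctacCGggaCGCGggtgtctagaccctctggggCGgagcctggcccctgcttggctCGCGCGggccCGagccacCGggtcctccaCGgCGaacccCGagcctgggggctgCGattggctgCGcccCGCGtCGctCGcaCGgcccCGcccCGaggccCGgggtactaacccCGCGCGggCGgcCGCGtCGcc
Runx3 start outside, chr4:135120395-135120644, plus strand: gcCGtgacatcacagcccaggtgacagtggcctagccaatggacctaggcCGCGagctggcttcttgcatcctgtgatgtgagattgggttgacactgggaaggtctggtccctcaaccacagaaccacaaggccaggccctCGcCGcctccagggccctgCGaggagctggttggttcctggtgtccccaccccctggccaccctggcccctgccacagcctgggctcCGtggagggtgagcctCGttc
Sgk1 start inside a member, chr10:21994416-21994665, plus strand: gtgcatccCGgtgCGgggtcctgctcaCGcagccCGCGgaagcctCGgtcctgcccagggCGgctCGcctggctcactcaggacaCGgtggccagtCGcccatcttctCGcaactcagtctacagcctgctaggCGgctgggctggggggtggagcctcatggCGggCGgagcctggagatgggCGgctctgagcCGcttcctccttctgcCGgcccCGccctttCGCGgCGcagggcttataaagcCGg
Zfp982 start inside a member, chr4:147442864-147443113, plus strand: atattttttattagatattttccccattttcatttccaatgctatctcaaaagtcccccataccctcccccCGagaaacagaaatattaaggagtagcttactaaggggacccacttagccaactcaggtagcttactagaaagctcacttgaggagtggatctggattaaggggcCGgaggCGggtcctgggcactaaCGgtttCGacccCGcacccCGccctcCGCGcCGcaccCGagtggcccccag

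The Runx1 sequence from the member held 27 CG dinucleotides and the one outside held 2. For Runx3 these were 38 and 8, and the Sgk1 and Zfp982 sequences held 22 and 11. Over whole windows of 300 bases, the 295 starts inside members had a median of 19 CG dinucleotides (quartiles 8.5 and 29). This lay near the 23 of starts in regions with a CpG island and a promoter, and above the 5 of starts in gene regions with neither and the 7 of all 32851 RefSeq windows. At least 1 CG (letters CG, the same on both strands) was present in 99.7% of the member windows and in 94.6% of all windows, and 15 or more in 60.7% and 34.6%. Members were chosen for holding a CpG island. The direction of their differences from regions without an island and from all windows was largely set by that choice.

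The regions were spread over 20 chromosomes, from 64 on chromosome 2 to 20 on chromosome 19, and together covered 5.51 megabases. Their length ran from 800 to 29000 bases with a median of 6600. A single island lay in 593 regions and 2 in 46. The largest number, 5 islands, belonged to a region (chrX:12120600-12141599) in Bcor, which encodes a corepressor of BCL6. Its average signal was 10.5 in control sham, 11.2 in control TAC, 10.3 in BCAA-free sham and 10.04 in BCAA-free TAC, nearly level across the libraries. Bcor listed 3 of the regions.

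The table listed a gene for 410 regions, and 293 (45.6%) lay inside one. The other 232 (36.1%) listed no gene. Of these, 85 overlapped the body of a RefSeq protein-coding gene and 77 held a RefSeq start. The middle of a region lay a median of 29434 bases from the nearest listed start (quartiles 13936 and 70025). At the length limit, the longest member was a region of 29000 bases at Dcaf5, with average signals of 8.62, 8.86, 6.91 and 7.56 in the order of libraries given above. The first region beyond the limit was one of 30400 bases at Mef2c, with 8.81, 9.37, 9.42 and 7.96.

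In all 4 libraries the median signal of these islands lay below that of island promoters and above those of 3 classes of regions without an island. The median over the 642 regions was 7.31 in control sham, 7.41 in control TAC, 7.41 in BCAA-free sham and 7.57 in BCAA-free TAC. The 8142 regions with both a CpG island and a promoter had 8.62, 8.98, 8.96 and 8.81. The 9218 gene regions with neither had 5.88, 5.84, 6.07 and 5.74, and the 6316 regions with no gene and no island 5.92, 6.02, 6.29 and 5.93. The 3313 regions with a promoter and no island, a class compared after the other values were seen, came closest from below with 6.60, 7.09, 6.96 and 6.90. The quartile ranges of the classes overlapped. Signal values have no stated scaling between libraries, so the order is within each library.

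**Figure D1:**
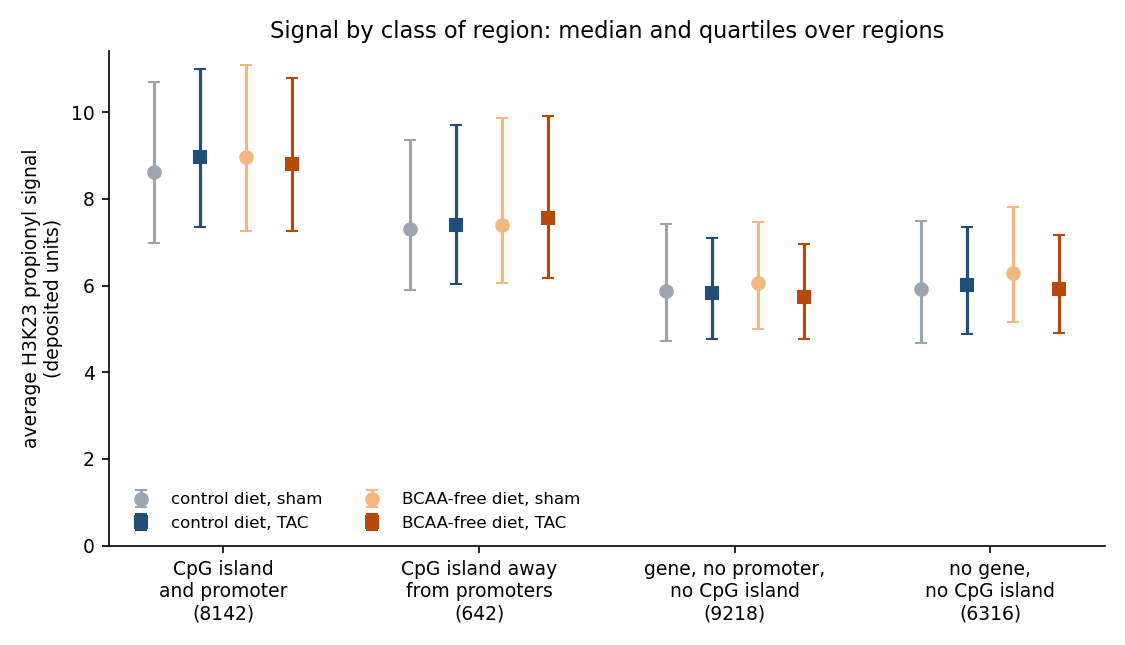
Average H3K23 propionyl signal (vertical axis, deposited units) by class of region under 30000 bases, with the number of regions in brackets. Points are medians over regions and bars run from the lower to the upper quartile, one colour per library. In each library the median of the islands away from promoters lies below that of the island promoters and above those of the 2 plotted classes with neither island nor promoter.

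The median peak height was 29, 30, 30 and 31 in these islands against 44, 47, 46 and 47 at island promoters and 18, 18, 19 and 18 in gene regions with neither. Promoters without an island had 24, 25, 26 and 25. A peak was called in all 4 libraries for 460 of the 642 regions (71.7%), for 89.0% of island promoters, for 60.7% of promoters without an island and for 42.4% of gene regions with neither. Within the 642, the 215 regions with a RefSeq start had a median signal of 7.84 in control sham and a median peak height of 35, and the 427 without one had 6.98 and 25. Calls in all 4 libraries were made for 81.9% and 66.5% of them.

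The strongest signal belonged to a region with 2 islands at Azin1, which encodes an antizyme inhibitor that raises polyamine synthesis. It had 20.2 in control sham, 25.6 in control TAC, 19.1 in BCAA-free sham and 20.9 in BCAA-free TAC. A region of 1700019O17Rik had 20.6, 21.6, 21.2 and 20.5. The region of Sgk1 (chr10:21986400-22007999), a kinase induced by serum and glucocorticoids, had 20.6, 19.5, 18.4 and 18.7 and contained the CG-rich start printed above. Its middle lay 115015 bases from the start the table used, so the table measured from another start of the gene. These regions were high in every library, and none of the 3 passed 1.5-fold in any comparison.

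Most islands away from promoters differed little between the 4 libraries. The ratio of the highest to the lowest library had a median of 1.27, against 1.33 over all regions and 1.2 at island promoters. It was under 1.5 for 546 members (85.0%), a share not computed over all regions. Ratios below are log2((A + 1)/(B + 1)) of the average signals, and a region was called higher or lower at 1.5-fold or more (0.585 on this scale), which is a size limit and no test. By that rule 603 of the 642 (93.9%) passed in no comparison, against 84.7% of all regions. Intervals after the ratio of a region are 95% intervals from estimated tags, which cover counting error only. Rank intervals after a median are 95% intervals over regions, which share the libraries and are not replicates. The counting error of a ratio had a median of 0.12 when TAC was compared with sham on the control diet.

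With TAC on the control diet, 11 members were higher (1.71%) and 9 lower (1.40%). As background, 4.38% of all regions were higher and 5.31% lower. The median ratio of the members was 0.03 (rank interval 0.00 to 0.05), and that of all regions 0.04. Ratios of the members had an SD over regions of 0.25, which was 0.34 over all regions. The gene regions with neither island nor promoter had 4.71% higher and 8.48% lower, and island promoters 1.15% and 0.639%. Peak heights moved the same way as the average signal in all 11 higher and all 9 lower members, and 11 and 5 of them passed 1.5-fold by peak height. Both measures come from the same libraries, so this is no independent support. Without the 215 regions that hold a RefSeq start, 10 were higher and 9 lower of 427. A peak was called in all 4 libraries for 6 of the 11 higher and 5 of the 9 lower members. The others entered the table through peaks of some libraries only.

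Members higher with TAC on the control diet included islands at Mb21d1, Fcrlb, Rasa2, Runx3 and Trps1. Among members with a mean signal above the members' median, the largest ratio belonged to the region chr9:78426600-78430999. It was listed as downstream of Ddx43, a DEAD-box helicase gene, and of Mb21d1. This member overlapped the RefSeq body of Mb21d1 (Cgas), which encodes the cytosolic DNA sensor cGAS. Its average signal was 6.47 in control sham, 12.6 in control TAC, 4.99 in BCAA-free sham and 11.7 in BCAA-free TAC. Both TAC libraries lay above both sham libraries. The ratio was 0.86 (0.59 to 1.14) on the control diet and 1.08 (0.79 to 1.38) on the BCAA-free diet. A region with 2 islands listed Dusp12, a phosphatase gene, and the B-cell genes Fcrlb and Fcrla, and overlapped the RefSeq body of Fcrlb. This region had 7.37, 11.7, 7.22 and 11.5. Its sham values were nearly equal on the 2 diets and so were its TAC values, with a ratio of 0.60 (0.46 to 0.75) on each.

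Rasa2, which encodes a GTPase-activating protein that damps Ras, listed a downstream region with 4.81, 9.22, 6.61 and 9.44 and a ratio of 0.81 (0.48 to 1.15). A region that listed no gene but lay in the body of Slc16a7, a monocarboxylate transporter gene, had 7.87, 13.4, 8.43 and 10.7, a ratio of 0.70 (0.50 to 0.89). The control TAC library was the highest of the 4 there. An island in Trps1, which encodes a GATA-type repressor, had 5.22, 8.56, 5.62 and 7.21 and a ratio of 0.62 (0.43 to 0.81). At low signal, a region that listed no gene (chr2:28394200-28407799) had 3.34, 7.14, 2.82 and 6.07, with 0.91 (0.71 to 1.10) on the control diet and 0.89 (0.68 to 1.09) on the BCAA-free diet. It passed on both diets and held the start of the non-coding gene Gm13373. The other 4 higher members also listed no gene. The one nearest Dlx2, a homeobox gene, had 3.51, 6.94, 3.79 and 4.98 and a ratio of 0.82 (0.45 to 1.18). Those nearest Gm6721, Rreb1 and Vrk1 had 0.65, 0.59 and 0.59, and at the last of these BCAA-free sham was as high as 11.4, with a ratio of −0.07 on that diet. The region nearest Gm6721 had a peak call in the TAC libraries only, and the one nearest Vrk1 had none in control sham.

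Runx1 and Runx3 encode transcription factors of blood cell formation and lymphocytes, and each is known to be transcribed from a distal promoter and from a proximal promoter in a CpG island. The Runx1 member (chr16:92690800-92700799), which holds 2 islands and the CG-rich start printed above, had 8.74 in control sham, 13.1 in control TAC, 7.36 in BCAA-free sham and 11.8 in BCAA-free TAC. Its TAC values were above both sham values, with ratios of 0.53 (0.36 to 0.70) and 0.61 (0.44 to 0.79). On the control diet this lay under 1.5-fold.

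The Runx3 member with the CG-rich start (chr4:135149000-135160199) had 6.72, 9.46, 5.93 and 8.30, with ratios of 0.44 (0.26 to 0.62) and 0.42 (0.24 to 0.61). The next member downstream of Runx3 (chr4:135175400-135184399) had 5.64, 9.48, 5.58 and 8.13, with 0.66 (0.45 to 0.86) and 0.47 (0.26 to 0.68). The member after that lists Clic4, an intracellular chloride channel gene, and had 8.72, 12.8, 7.75 and 12.1. In these 3 neighbouring islands of chromosome 4 both TAC libraries lay above both sham libraries.

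The Runx1 gene could be followed beyond its island. The table listed 8 regions for it, and the region at the distal start, which had no CpG island, had 3.99, 6.78, 3.91 and 5.78, with ratios of 0.64 and 0.47. On the control diet, regions 40067 and 110467 bases into the gene had 0.66 and 0.61, and the region at 151567 bases had the highest ratio of the 8, 0.77, with 0.30 on the BCAA-free diet. The 3 regions farthest into the gene had lower ratios on the control diet, −0.19 at 188967 bases, 0.21 at 194467 bases and −0.22 at 215267 bases. The signal at the proximal start was higher than at the distal start in every library.

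Of 24 leukocyte markers, 3 (Runx1, Runx3 and Fcgr1) listed a member, in 4 regions, and 1 of the 4 passed 1.5-fold higher on each diet, the downstream Runx3 region on the control and the Runx1 region on the BCAA-free diet. Their median ratio was 0.48 on the control diet and 0.45 on the BCAA-free diet. The fourth region, near a histone gene cluster that also lists Fcgr1, had −0.07 on both diets. In the table as a whole, 21 of the 24 markers listed 46 regions and Adgre1, Cd3e and Spi1 listed none. Their median signal was 5.35 (2.41 to 20.9), 8.52 (3.68 to 18.3), 5.32 (2.46 to 19.9) and 6.89 (3.54 to 15.7), with a median ratio of 0.56 and 22 of 46 higher on the control diet (4.38% of all regions), and 0.37 and 3 of 46 higher on the BCAA-free diet (1.41% of all regions). The part of these cells in the Runx ratios was not tested.

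**Figure D2:**
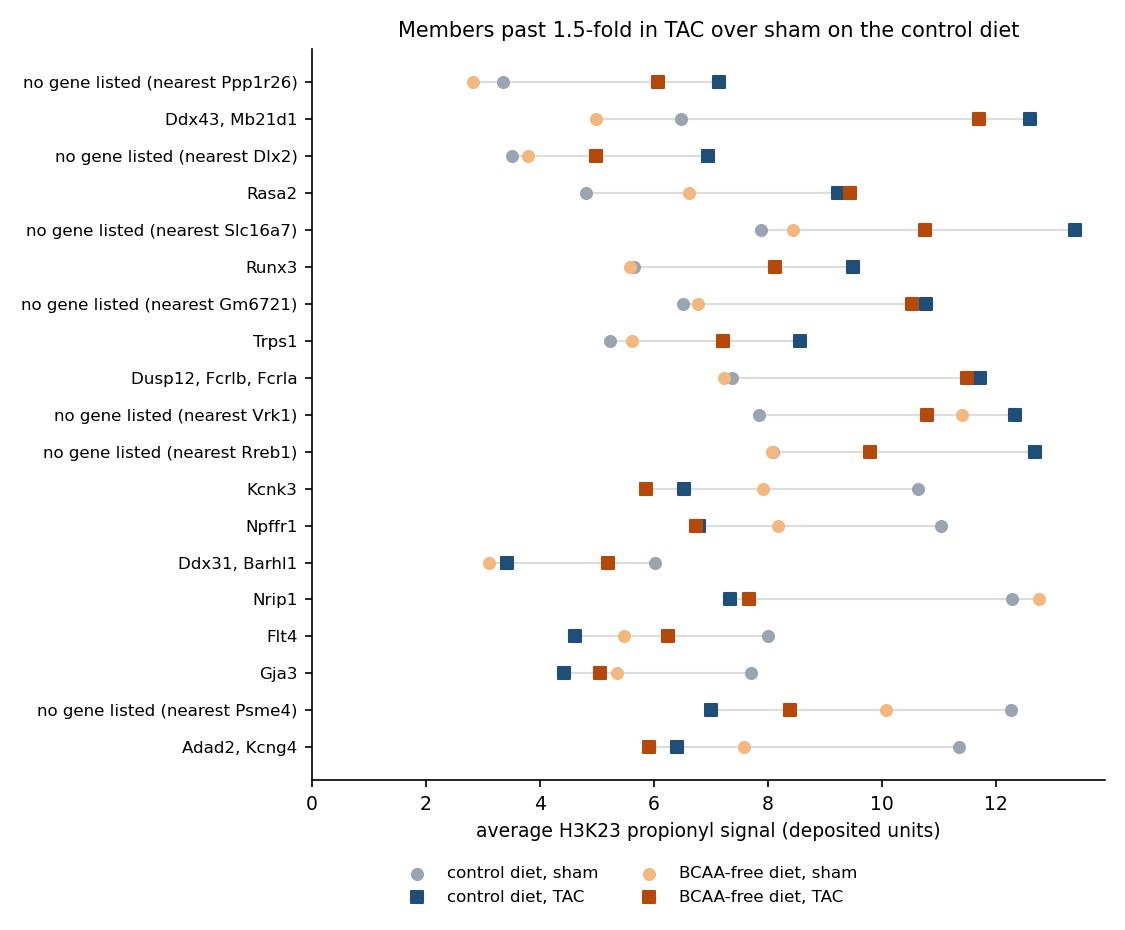
The plot shows 19 of the 20 members past 1.5-fold in TAC over sham on the control diet, one row each with the listed genes, or the nearest RefSeq protein-coding gene where none is listed. The horizontal axis is the average signal in deposited units, circles are sham and squares TAC libraries, and rows run from the highest to the lowest ratio. In the row of Ddx43 and Mb21d1 both squares (11.7 and 12.6) lie to the right of both circles, and in the row of Nrip1 both squares (7.33 and 7.66) lie to their left.

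Members lower with TAC on the control diet included islands at Kcng4, Kcnk3, Flt4 and Nrip1. The lowest ratio belonged to a region (chr8:119615800-119626599) listed as downstream of Adad2 and of Kcng4, which encodes a modifier subunit of voltage-gated potassium channels. This region overlapped the RefSeq body of Adad2. It had 11.3 in control sham, 6.39 in control TAC, 7.57 in BCAA-free sham and 5.92 in BCAA-free TAC. Control sham stood above the other libraries, and the ratio was −0.74 (−0.92 to −0.56) on the control diet and −0.31 (−0.50 to −0.12) on the BCAA-free diet. Kcnk3, which encodes a background potassium channel of atrial muscle, listed a region with 10.6, 6.53, 7.91 and 5.87 and ratios of −0.63 (−0.75 to −0.50) and −0.38 (−0.51 to −0.24).

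Flt4, the receptor gene for the lymphatic growth factor VEGF-C, had 7.99, 4.61, 5.47 and 6.25, ratios of −0.68 and 0.16. Gja3, a connexin gene best known from the lens, had 7.71, 4.43, 5.36 and 5.05, ratios of −0.68 and −0.07.

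Nrip1, which encodes a corepressor of nuclear receptors that restrains oxidative metabolism, was the only member lower past 1.5-fold on both diets. Its island (chr16:76289800-76296799) had 12.3 in control sham, 7.33 in control TAC, 12.7 in BCAA-free sham and 7.66 in BCAA-free TAC. The 2 sham values were close to each other, and so were the 2 TAC values. The ratio was −0.67 (−0.88 to −0.46) on each diet. A region that listed no gene (chr11:30749800-30756799) near the proteasome activator gene Psme4 had 12.3, 7.01, 10.1 and 8.38 and a ratio of −0.73 (−0.94 to −0.51). Npffr1, a neuropeptide receptor gene, had −0.63 (−0.85 to −0.41).

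Members at genes of calcium handling and ion channels included those of Kcnh2, Kcnq1 and Slc8a1. None of these 3 passed 1.5-fold with TAC on the control diet. Kcnh2 and Kcnq1, which encode channels that repolarise the cardiomyocyte, had −0.47 and −0.48. The Kcnh2 region lay inside the gene, 23305 bases from the start. The Kcnq1 region was listed as downstream, 326045 bases from the start. Slc8a1, the sodium-calcium exchanger gene, had 0.06. Of 14 cardiomyocyte markers, 1 (Myl3) listed a member. The Myl3 member was nearly level, with a TAC ratio of −0.08 for control-diet hearts and 0.08 for BCAA-free hearts. Among all regions, 13 of the 14 markers listed 25 regions and Nppa listed none. Their median signal was 8.92 (5.30 to 16.6), 5.48 (2.91 to 14.9), 7.68 (4.88 to 13.7) and 6.60 (3.28 to 12.7), and their median ratio was −0.67 with 15 of 25 lower on the control diet (5.31% of all regions). On the BCAA-free diet it was −0.35 with 0 of 25 lower (2.37% of all regions). The part of cardiomyocyte number in the ratios of channel genes was not tested.

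Casz1, which encodes a zinc finger factor needed for heart development, listed 4 members, more than any other gene. The member 74707 bases from the start had 11.5, 7.69, 8.30 and 7.37, and the one at 101607 bases 8.86, 6.30, 5.97 and 5.90. In both, control sham was the highest library, with ratios of −0.53 (−0.63 to −0.42) and −0.43 (−0.57 to −0.29) on the control diet. On the BCAA-free diet the ratios were −0.15 (−0.26 to −0.04) and −0.02 (−0.17 to 0.14). The member at 136207 bases went the other way, with 4.76, 7.60, 5.76 and 5.81 and a ratio of 0.58 (0.24 to 0.91), just under 1.5-fold. The last, at 151307 bases, had −0.08. Islands of this 1 gene thus differed in direction on the control diet. The region of the table at the Casz1 start had −0.43 and −0.30.

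**Figure D3:**
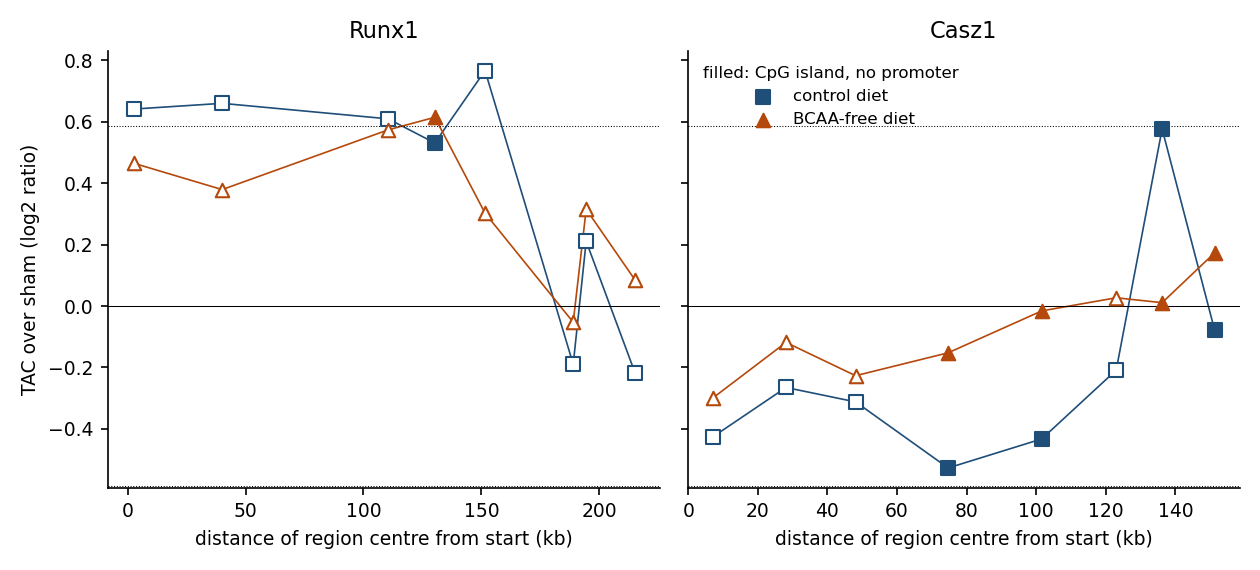
TAC over sham (vertical axis, log2 ratio) for all regions of the table that list Runx1 (left) or Casz1 (right), against the distance of the region's centre from the gene's start in kb. Squares are the control diet and triangles the BCAA-free diet, filled symbols are CpG islands away from promoters, and dotted lines mark 1.5-fold. The filled Runx1 symbols lie at 0.53 and 0.61, and the Casz1 squares run from −0.53 to 0.58.

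With TAC on the BCAA-free diet, 9 members were higher (1.40%) and 5 lower (0.779%). The background over all regions was 1.41% higher and 2.37% lower, and among island promoters 0.332% and 0.123%. A peak was called in all 4 libraries for 3 of the 9 higher and 2 of the 5 lower members. The split was 13 higher and 3 lower when each library was divided by its median, and 13 and 4 after quantile normalisation. The median ratio was −0.01 (−0.03 to 0.02), against −0.06 over all regions, and 59.3% of members lay above that of all regions. Besides the members named above, Ccl28, a chemokine gene of mucosal tissues, had a short island with 4.00, 5.71, 4.24 and 10.2, high only in BCAA-free TAC. Its ratio of 1.10 (0.37 to 1.82) rested on an estimated 15.1 tags in BCAA-free sham and 36.4 in BCAA-free TAC.

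A region that listed no gene (chr13:12649000-12650999) had 6.81, 10.1, 4.20 and 9.58, with 0.50 (0.08 to 0.92) on the control diet and 1.02 (0.56 to 1.49) on the BCAA-free diet. Prdm11, a gene of the PR-domain family of chromatin regulators, had 9.51, 8.47, 6.79 and 10.7, with −0.15 (−0.46 to 0.16) and 0.59 (0.27 to 0.90). A region nearest Ttll10 that listed no gene had 5.12, 7.88, 4.88 and 8.10, with 0.54 (0.08 to 1.00) and 0.63 (0.17 to 1.09), so its TAC libraries were both the higher ones. Among the lower members, the region at the Zfp982 start (chr4:147442400-147444999), a zinc finger gene, had 8.48, 7.09, 10.2 and 6.29 and a ratio of −0.62 (−0.99 to −0.25). Akap12, a scaffold gene for protein kinase A, had 5.07, 3.81, 6.04 and 3.44 and −0.67 (−1.14 to −0.20). Gm5797 had −0.92 (−1.76 to −0.09), but it belongs to a cluster of near-identical predicted genes between which reads may be split, so its value is uncertain.

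The TAC ratios on the 2 diets, which share no library, were related across members. Pearson's r was 0.455 and Spearman's rho 0.412 over 642 regions, which share the libraries and are not replicates. Over all regions r was 0.532. For 404 members (62.9%) both ratios lay on the same side of the medians of all regions, as they did for 67.6% of all regions. Of the 11 members higher on the control diet, 10 were above 0 on the BCAA-free diet, with a median of 0.46, and 3 passed 1.5-fold on both. Among all regions, 1113 of the 1278 higher were above 0, with a median of 0.32, and 183 passed on both. Of the 9 lower members, 6 were below 0 with a median of −0.24, and 1 passed on both. Among all regions, 1409 of the 1551 lower were below 0, with a median of −0.35, and 252 passed on both.

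**Figure D4:**
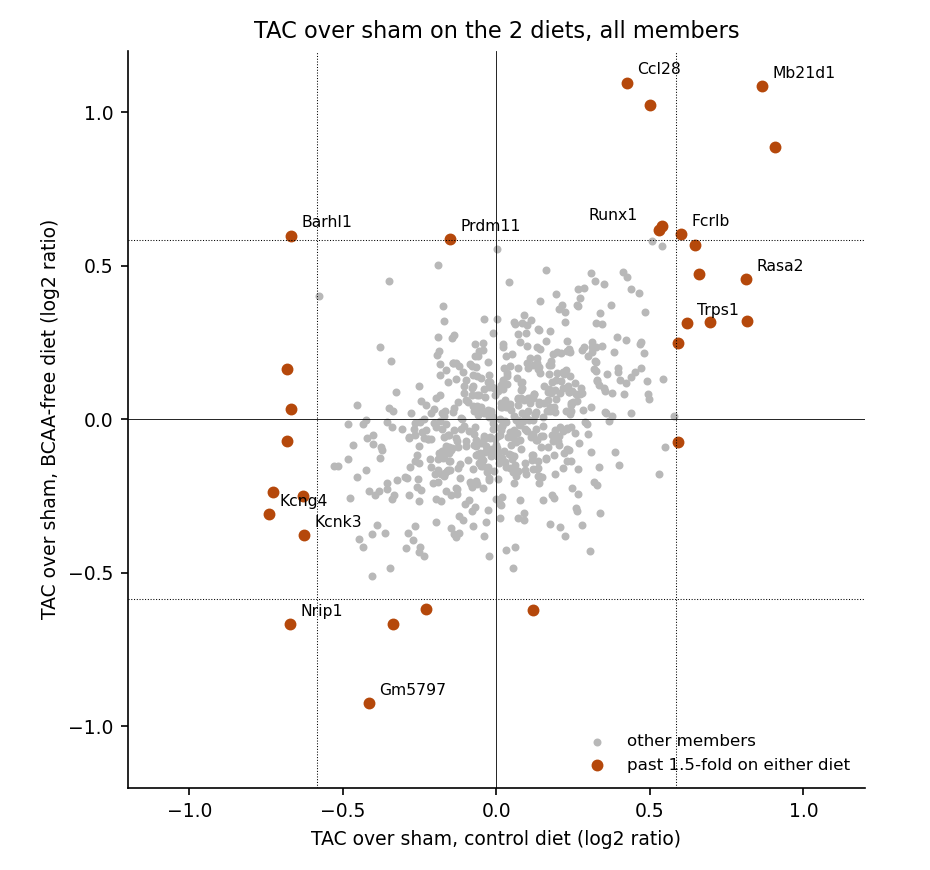
Each point is 1 of the 642 members, placed by its TAC over sham log2 ratio on the control diet (horizontal) and on the BCAA-free diet (vertical). Dotted lines mark 1.5-fold, and orange points passed it on either diet. The points run from lower left to upper right (r 0.455), with Mb21d1 at the upper right, Nrip1 at the lower left and Barhl1 at the upper left.

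The difference between the TAC ratios, BCAA-free minus control, had a median of −0.03 over members (rank interval −0.06 to −0.01) and −0.08 over all regions. Its sign was not stable to scaling: it was 0.03 when each library was divided by its median and 0.04 after quantile normalisation. The only member past 1.5-fold in opposite directions was a short region with 2 islands (chr2:28907800-28909599) at Barhl1, a homeobox gene of neurons, and Ddx31, a helicase gene. It had 6.02, 3.42, 3.10 and 5.20, so control sham and BCAA-free TAC were high and the other libraries low. The ratios were −0.67 (−1.21 to −0.12) and 0.60 (0.03 to 1.16), and a peak was called in 1 library. An island of Esrrb, an oestrogen-related receptor gene, had −0.58 (−1.01 to −0.14) and 0.40 (−0.04 to 0.84).

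Between diets in sham hearts, 9 members were higher on the BCAA-free diet (1.40%) and 2 lower (0.312%), where 2.71% and 1.37% of all regions were. Among island promoters 0.393% were higher and 0.123% lower. After quantile normalisation the members were 5 and 3. Of the 9 and 2, a peak was called in all 4 libraries for 4 and 0. The median ratio was 0.05 (rank interval 0.03 to 0.07) for members and 0.04 for all regions and for island promoters. The 2 diet comparisons and the 2 TAC comparisons share libraries, so a region high in BCAA-free sham alone also had a negative TAC ratio on that diet. The 157 members under 4000 bases had a median of 0.11 and the 169 longest members −0.01.

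The member with the largest diet ratio (chr15:54949600-54955199) listed no gene and lay in the body of Enpp2, which encodes autotaxin, the enzyme that makes lysophosphatidic acid. It had 6.56 in control sham, 8.08 in control TAC, 13.1 in BCAA-free sham and 10.9 in BCAA-free TAC. Both BCAA-free libraries lay above both control libraries, with ratios of 0.90 (0.66 to 1.14) in sham and 0.39 (0.15 to 0.63) in TAC. Wnt8b, a Wnt ligand gene, had 3.06, 3.92, 6.00 and 4.51 and a sham ratio of 0.79 (0.40 to 1.18), and its region also lists the vesicle coat gene Sec31b. Whsc1l1, which encodes the H3K36 methyltransferase NSD3, had 3.41, 4.00, 5.65 and 4.61 and a ratio of 0.59 (0.25 to 0.94).

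Twist1, Pias3 and Prrx2 were further genes with islands of higher signal in BCAA-free sham than in control sham. Twist1, a mesenchymal transcription factor gene, had 3.81, 3.73, 6.30 and 4.95, with 0.60 (0.16 to 1.04) in sham and 0.33 (−0.13 to 0.79) in TAC. Ankrd35 listed a region shared with Pias3, an inhibitor gene of STAT signalling, with 4.85, 5.99, 8.17 and 6.50 and a ratio of 0.65 (0.33 to 0.97). Another 4 higher members listed no gene. The one at B3galt1, a galactosyltransferase gene whose RefSeq start it holds, had 5.01, 5.31, 8.57 and 6.65 and 0.67 (0.39 to 0.95). Those nearest Spr, Bcorl1 and Naaladl2 had 0.72, 0.64 and 0.61, each with BCAA-free sham as the highest library. The 2 lower members were the region at Barhl1, with −0.78 (−1.33 to −0.22), and the one at chr13:12649000-12650999, with −0.59 (−1.08 to −0.10). Prrx2, a homeobox gene of the mesenchyme, stayed just under 1.5-fold with 6.37, 7.18, 9.95 and 10.01, and ratios of 0.57 (0.26 to 0.88) and 0.43 (0.13 to 0.73). Its BCAA-free libraries both lay above its control libraries. Of 169 developmental transcription factor genes, 8 listed a member (Klf4, Meis1, Meis2, Nfia, Prrx2, Satb1, Tfap2a and Twist1), and 1 of the 8 passed 1.5-fold higher and 0 lower in sham. Their median diet ratio was 0.25 in sham and 0.12 in TAC, with 7 of 8 above 0 in each, also under both other scalings. Over all 226 regions of the table that listed a gene of this set the medians were 0.08 and 0.01, with 64.6% and 52.7% above 0 against 57.6% and 44.5% of all regions, and in sham 7 were higher and 5 lower. Over the whole table, 15 of 15 fibroblast markers listed 27 regions with a median signal of 5.43 (2.96 to 10.8), 6.74 (3.14 to 14.3), 7.84 (4.41 to 14.0) and 7.23 (3.66 to 12.8), a median diet ratio of 0.39 with 6 of 27 higher in sham (2.71% of all regions), and 0.12 with 0 of 27 higher in TAC (0.948% of all regions). None listed a member, and the part of these cells in the ratios was not tested.

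**Figure D5:**
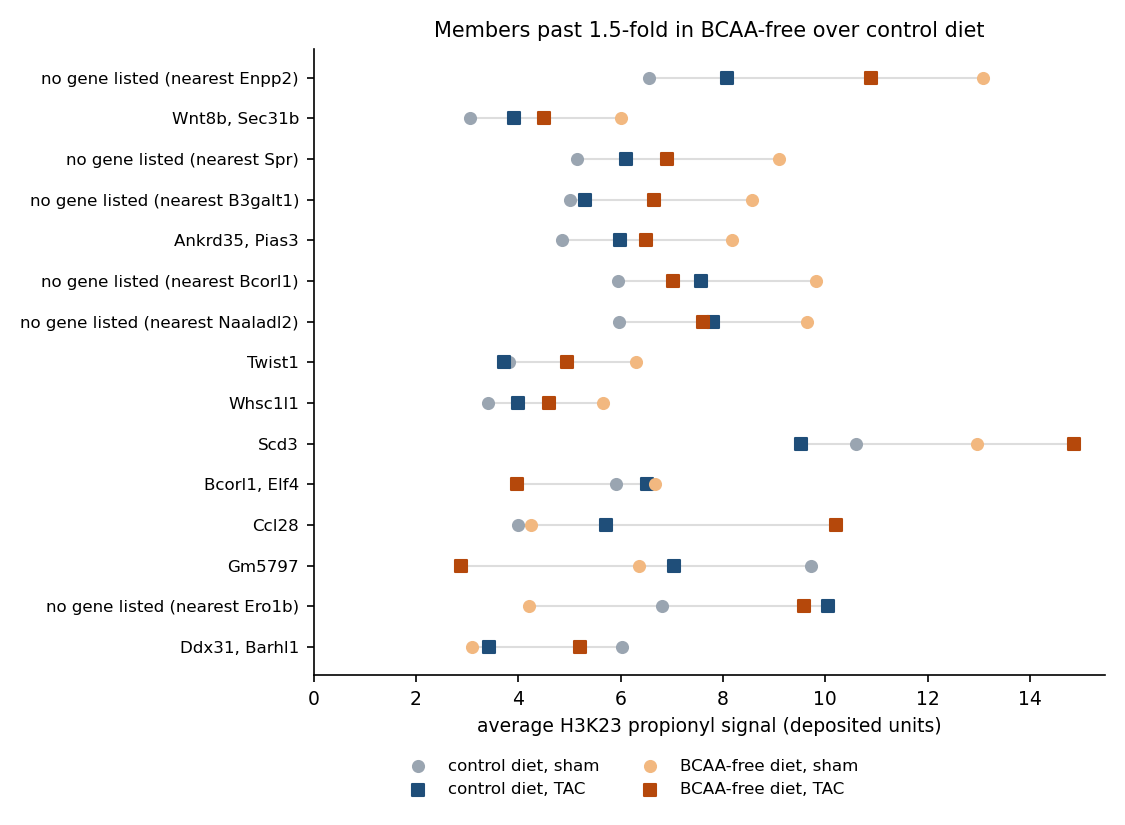
The 15 members past 1.5-fold in either comparison of the BCAA-free with the control diet, one row each as named by their listed genes or the nearest RefSeq protein-coding gene. The horizontal axis is the average signal in deposited units, orange symbols are the BCAA-free and grey or blue the control diet, and rows run from the highest to the lowest ratio in sham hearts. In the row nearest Enpp2 both BCAA-free values (13.1 and 10.9) lie to the right of both control values.

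Between diets in TAC hearts, 2 members were higher and 2 lower (0.312% each). Over all regions 0.948% were higher and 0.962% lower, and among island promoters 0.184% and 0.27%. With each library divided by its median the members split into 4 and 1. Of the 2 higher and 2 lower, a peak was called in all 4 libraries for 1 and 0. The median was 0.01 (−0.01 to 0.03) for members and −0.02 for all regions, and 58.4% of members lay above that of all regions. Besides Ccl28, with 0.74 (0.06 to 1.42), the higher member was a region listed as downstream of Scd3, a stearoyl-CoA desaturase gene. Its middle lay 44311 bases from the Scd3 start, and the region overlapped the RefSeq body of another gene, Pkd2l1. The region had 10.6, 9.53, 12.97 and 14.9, with both BCAA-free libraries above both control libraries. Its ratios were 0.27 (0.04 to 0.49) in sham and 0.59 (0.37 to 0.81) in TAC. The lower members were Gm5797, with 9.72, 7.04, 6.36 and 2.88 and a ratio of −1.05 (−1.87 to −0.23), and a region downstream of Bcorl1 and Elf4, a corepressor and an ETS factor gene, which had 5.92, 6.51, 6.67 and 3.98 and −0.59 (−1.09 to −0.09). With BCAA-free TAC as the low library, that region also had a TAC ratio of −0.62 (−1.12 to −0.13) on the BCAA-free diet.

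Of 53 chromatin regulator genes, Dnmt1, Dnmt3a, Kdm2b, Prdm2 and Rere listed 6 members, and 0 passed 1.5-fold in any comparison. On the control diet 5 of the 6 TAC ratios were above 0, with a median of 0.15. Over all 140 regions of the table that listed one of these genes the median was 0.00, with 51.4% above 0 against 55.4% of all regions, and 1 was higher and 5 lower. Dnmt1, the maintenance DNA methyltransferase gene, had 6.76, 8.64, 6.80 and 8.18 and ratios of 0.31 (0.13 to 0.49) and 0.23 (0.05 to 0.42), with both TAC libraries above both sham libraries. Kdm2b, whose product binds unmethylated CpG islands, had 0.17 (0.01 to 0.34) and 0.20 (−0.09 to 0.50) in its 2 members.

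Few genes of the metabolism that makes propionyl-CoA listed a member. Of 43 genes of BCAA breakdown and propionyl-CoA metabolism, Ivd and Bcat1 listed a member. The Ivd member, for isovaleryl-CoA dehydrogenase of leucine breakdown, had 5.94, 4.64, 5.74 and 4.92, a TAC ratio of −0.30 (−0.59 to −0.01) on the control diet. Bcat1, the cytosolic branched-chain aminotransferase gene, had 5.51, 5.87, 5.43 and 6.66 and 0.08 (−0.19 to 0.34). Neither passed 1.5-fold in any comparison. Of the other lists, 0 of 31 fatty acid oxidation genes, 1 of 29 sarcomere genes (Myl3), 2 of 54 matrix genes (Col4a1, Col8a2), 2 of 50 imprinted genes (Gnas, Kcnq1) and 3 of 64 signalling genes (Notch3, Tcf7l2, Wnt10b) listed one, and cardiac transcription factors with a member included Esrrb and Zfpm1. None of these members passed 1.5-fold in a comparison. Among the other cell type markers, 1 of 12 neuron and glia genes (Syp) and 1 of 12 smooth muscle and pericyte genes (Notch3) listed a member, and 0 of 16 endothelial, 0 of 11 skeletal muscle and 0 of 9 liver and epithelium genes did.

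For 121 members inside a gene, the table also had a region at that gene's own start (centre within 2500 bases), at a median distance of 35700 bases. The median of the mean signal was 6.71 at the islands and 7.60 at the starts, and 69 of 121 islands (57.0%) were below their start region. Of 3756 gene regions without an island, 80.9% were. Across the 121 pairs, the TAC ratio of island and start region had r 0.226 on the control diet (rho 0.112) and 0.281 on the BCAA-free diet (rho 0.247). The diet ratios had r 0.363 in sham and 0.0534 in TAC. The islands and the starts of the same gene share libraries, and these values describe the pairs only.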

How the data were processed

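ChIP-seq with an antibody against propionylated H3K23 was analysed from 4 libraries, 1 per group, grouped by the treatment labels. The submitters' processing notes name BWA, MACS2 and build mm10. Their versions, parameters and roles are not given in the sources used here. The authors deposited 1 table of merged peak regions. Per the file headers, each region carries 1 average signal, 1 peak height (also a signal) and 1 peak call of 0 or 1 for every library, and the number of its CpG islands and promoters. The annotation behind these counts and the scaling between libraries are not given. Log2 ratios between libraries and the larger tag number of a pair were also deposited. The deposited log2 ratios were matched to within 4.44e-16 without a pseudocount. For the control-diet libraries, the larger average signal times length over the deposited larger tag number was 224, to within 8.53e-14. That constant was used to estimate tags per library. The estimates are thus the signal rescaled, and whether they equal read counts was not checked.

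With Python 3.11.15, numpy 2.4.6, pandas 2.3.3 and scipy 1.17.1, log2((A + 1)/(B + 1)) was computed for all 29210 regions, with no filter. This scale understates ratios at low signal. Estimated tags had medians of 220 to 226 per member, and intervals of single regions cover counting error only. Intervals of medians are rank intervals over regions, which are not replicates. There was no test, since each group had 1 library. The script was tested on simulated data. RefSeq starts and genes are those of GRCm38.p6, which is the assembly behind mm10. On each comparison the 5 highest and 5 lowest members with a mean signal above the members' median were named, with the 10 of highest signal, the 5 with most islands, and up to 2 members per gene list and comparison. Some of these are not reported here. Members past 1.5-fold below that signal, the regions of Casz1, Clic4 and Runx1, and the sequences were picked with their values in view. The members, the 18 gene lists and the rules were chosen with earlier results of these data known. The alternatives were a pseudocount of 0.1, 2 other scalings, peak height, filters on signal, on peak calls and on length, a 2-fold rule and, added after seeing the data, leaving out members with a RefSeq start.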

Additional observations from a re-analysis of the deposited data

Results flagged for a closer look

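The island region at Ddx31 and Barhl1 moved in opposite directions with TAC on the 2 diets. Its log2 ratio of TAC over sham was −0.67 on the control diet and 0.60 on the BCAA-free diet, a difference of 1.27. The difference was not tested, since each group had 1 library. The region was short, with 2 islands and a peak call in 1 library, and both counting intervals came close to 0 (−1.21 to −0.12 and 0.03 to 1.16).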

How the results depend on the processing

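Counts of members are given as higher and lower, in the order TAC over sham on the control diet, on the BCAA-free diet, and BCAA-free over control in sham and in TAC hearts. They were 11 and 9, 9 and 5, 9 and 2, and 2 and 2 in the report. Peak height in place of average signal gave 45 and 30, 49 and 33, 52 and 21, and 42 and 17. Higher with TAC on the BCAA-free diet were then 7.63% of members and 5.76% of all regions, and higher for diet in TAC 6.54% and 5.41%, whereas by average signal the members' shares were 1.40% against 1.41% and 0.312% against 0.948%. In the other 6 counts by peak height the members' share lay below that of all regions. Peak height gave diet medians of 0.0754 in sham and 0.0477 in TAC. Among the 460 members with a peak call in all 4 libraries the counts were 6 and 5, 3 and 2, 4 and 0, and 1 and 0. Among the 371 whose mean signal exceeded that of the median region, 5 were lower with TAC on the control diet, where the median ratio was 0.0039, and the later counts were 5 and 2, 3 and 1, and 1 and 0. A 2-fold rule left 0 and 0, 3 and 0, 0 and 0, and 0 and 1. The 3 were 0.467% of members against 0.0787% of all regions, and the 1 was 0.156% against 0.0342%. Fewer regions were eligible or could pass in these 3 settings. A pseudocount of 0.1 gave 15 and 7 for diet in sham and 9 higher for diet in TAC.

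Dividing each library by its median gave 3 lower with TAC on the BCAA-free diet and 4 and 1 for diet in TAC, with medians of 0.0464 for TAC on the BCAA-free diet, 0.007 for diet in sham and 0.0349 for diet in TAC. Quantile normalisation gave 5 higher for diet in sham and medians of 0.0497, 0.003 and 0.0378. The difference between the diets' TAC ratios changed sign, to 0.0318 and 0.0367 under these scalings. Still past 1.5-fold in the same direction, in the order of comparisons above, were 18 of 20, 12 of 14, 8 of 11 and 3 of 4 members with libraries divided by their median, and 19, 13, 7 and 4 with quantile normalisation. Members shorter than 10000 bases had diet medians of 0.0731 and 0.0438. A count was called close when the larger value was at most 1.5 times the smaller. A median was called close when it lay inside its rank interval in the report. By these rules 61 of 112 results under an alternative stayed close to the value in the report and 49 moved. Another 2 changed sign where the reported rank interval did not span 0. The cause was not tested. No paired analysis was possible because each group had 1 library. The counting interval of a member's log2 ratio had a median half-width of 0.23 to 0.24 over the 4 comparisons and spanned 0 for 440 to 515 of the 642 members, and pools vary by an unknown amount.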
